A study of Mus musculus with 4 samples.

Results

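Immunoglobulin genes are read here through 29 probes, out of 35556 on the array, that the platform annotation assigns to heavy or light chain segments and to no other gene. Of these, 10 belonged to the heavy chain, 17 to the kappa light chain and 2 to the lambda light chain. A probe in this sense is a probe set, a group of short DNA probes read together. RNA of visceral mesothelium, taken from the omentum, was hybridized to 2 arrays, and RNA of parietal mesothelium, teased off the skeletal muscle of the body wall, to 2 further arrays. All mice were adults of the c57bl/6 background carrying Wt1-cre and the Rosa26ReYFP reporter, so that both tissues shared one genotype, and no treatment is given. The Cre is driven from Wt1, a gene of the mesothelial lineage, and marks those cells. The methods give the RNA as extracted from the native tissue and name no sorting step. By the eYFP marker, the paper judged nearly all of the input to be mesothelial cells. The methods isolated both tissues in parallel from these animals, so arrays of the tissues could be paired by animal. The main fit uses no pairing, since the animals behind each array are not given. The p-values below therefore measure the spread between arrays, which are called biological replicates but could in part be technical.

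An antibody is built from paired heavy and light chains. In developing B cells a variable (V) segment is joined to a joining (J) segment, in the heavy chain with a diversity (D) segment between them, and the joined exon is spliced to a constant region. The heavy constant region sets the antibody class, with Ighm for IgM, Ighg3 for the IgG3 subclass and Igha for IgA. Each B cell clone uses its own V segments, and plasma cells, the secreting descendants of B cells, carry very large amounts of these transcripts. The omentum is known for its milky spots, leukocyte clusters beneath the mesothelium that hold macrophages and B cells.

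The 29 probes carried 29 different segment symbols, among the 395 heavy, kappa and lambda segments of the RefSeq annotation (GRCm38.p6), where the loci lie on chromosomes 12, 6 and 16. Named V segments were 3 of the heavy chain, 18 of the kappa chain and 2 of the lambda chain. No D segment was named, and the only J segment was Igkj1. Probes with 1 symbol numbered 15, and the other 14 carried several, up to 8. A probe with several symbols is given by its number. The symbols come from sequence accessions, many of them joined antibody transcripts, so a constant region symbol does not tell which end of the transcript a probe reads. Some probes also share accessions and are not independent: by these links the 29 fell into 18 groups, the largest of which held 7 kappa probes.

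Immunoglobulin probes of all 3 chains were called higher in visceral than in parietal mesothelium. A call required 1.5-fold or more and, in limma fitted on all probes at once, a Benjamini-Hochberg adjusted p under 0.05. By this rule 14 of the 29 probes were higher in visceral mesothelium, or 48.3%, against 3.27% of all probes. They were 10 of 17 kappa, 2 of 2 lambda and 2 of 10 heavy chain probes. None was called lower, against 2.79% of all probes. At an unadjusted p under 0.05, limma gave 24 higher and 0 lower, against 4385 higher and 3486 lower of all 35556 probes. The median log2 difference (visceral minus parietal, used throughout) was 1.67 over the 29 probes and 0.01 over all probes. In 27 probes both visceral arrays lay above both parietal arrays, against 28.2% of all probes. The called probes differed by 2.19-fold to 27.7-fold. In bulk tissue, more cells of a type and more RNA per cell cannot be told apart.

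These calls depended on single arrays. They numbered 5 without parietal replicate 1 and 6 without parietal replicate 2, against 18 without visceral replicate 1 and 21 without visceral replicate 2. With a visceral array left out, the spread comes from the parietal pair alone and the lone visceral array is assumed to vary like it. The median difference ran from 1.38 to 1.84 over these 4 fits. Called in all 4 of them were 5 probes, namely those of Igkv4-91, Igkv10-96 and Igkv19-93 (probe 10545177), the lambda probe 10438405 and probe 10545175.

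**Figure D1:**
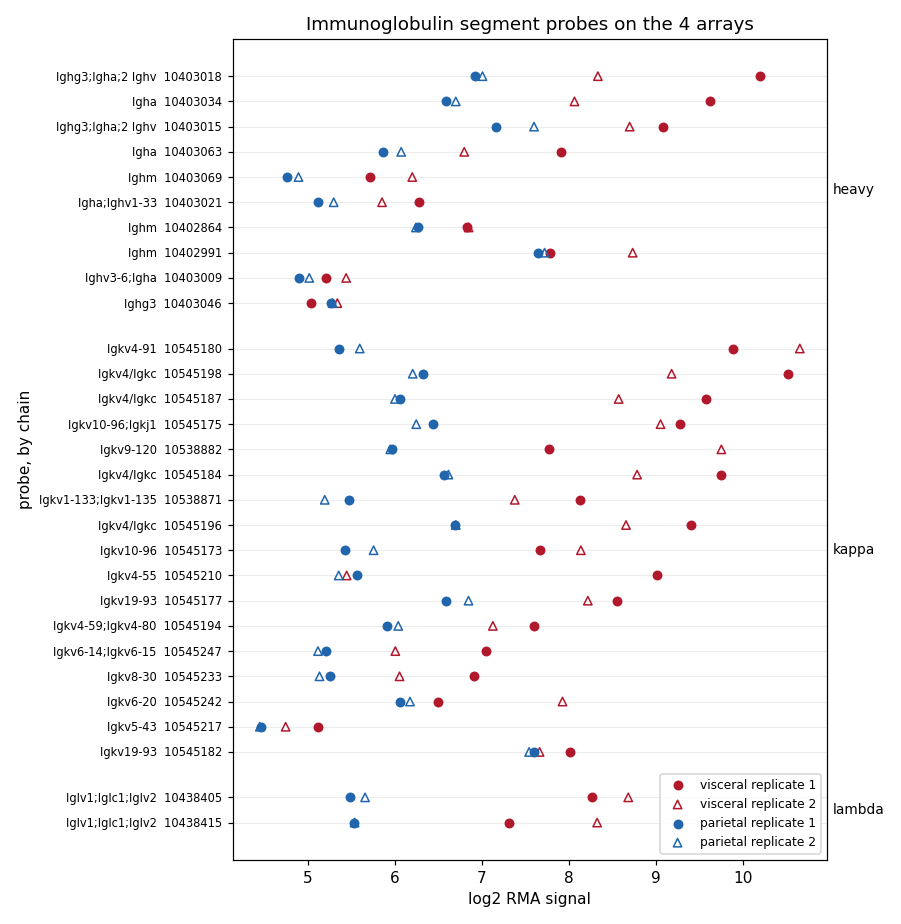
Log2 RMA signal (x axis) of each immunoglobulin probe (y axis, by chain, in falling order of the difference between tissues). Red marks are visceral and blue marks parietal arrays, circles for replicate 1 and triangles for replicate 2; in 27 of 29 probes both red marks lie to the right of both blue ones, and the red marks of Igkv4-55 lie at 9.02 and 5.45.

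Among the kappa probes, 10 of 17 were called higher, with a median log2 difference of 2.31. Igkv4-91, a single variable segment, stood far apart between the tissues. Its log2 signal was 9.89 and 10.66 in visceral mesothelium, against 5.37 and 5.60 in parietal mesothelium. This 27.7-fold difference, 4.79 on the log2 scale, had a standard error of 0.28 and an adjusted p of 0.00282 from limma. It was 4.41 to 5.17 on leaving out each array. No other of the 29 probes differed by more.

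The kappa constant region, Igkc, which all kappa chains share, was named on 4 probes together with Igkv4 segments, and all 4 were called higher. Probe 10545198 gave 10.52 and 9.18 in visceral mesothelium, against 6.33 and 6.21 in parietal mesothelium (difference 3.58, standard error 0.45, adjusted p = 0.0204 from limma). Probe 10545187 gave 9.58 and 8.58, against 6.06 and 6.01 (difference 3.04, standard error 0.34). The other two, 10545184 and 10545196, differed by 2.67 (standard error 0.33) and 2.34 (standard error 0.26). In each of them visceral replicate 1 was the highest array, and the parietal arrays lay within 0.12 of each other. A neighbouring probe of Igkv4-59 and Igkv4-80 without Igkc, 10545194, gave 7.60 and 7.13 in visceral mesothelium, against 5.91 and 6.04 in parietal mesothelium, and was also called (difference 1.39, standard error 0.18). Together with both Igkv19-93 probes, these 5 probes make up the largest group linked through shared accessions.

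Kappa segments outside the Igkv4 family were called in 4 of 10 probes. Igkv10-96 had a log2 signal of 7.67 and 8.14 in visceral mesothelium, against 5.44 and 5.76 in parietal mesothelium (difference 2.31, standard error 0.20, adjusted p = 0.0083 from limma). Probe 10545175, which shares an accession with it and carries Igkv10-96 with the joining segment Igkj1, gave 9.29 and 9.06, against 6.44 and 6.25. The difference, 2.83 (standard error 0.13), had the lowest adjusted p of the 29 probes, 0.00158 from limma. The Igkv1-133 and Igkv1-135 probe, 10538871, gave 8.13 and 7.38 in visceral mesothelium, against 5.47 and 5.20 in parietal mesothelium (difference 2.42, standard error 0.27). Igkv19-93 was read by 2 probes that disagreed in size. Probe 10545177 gave 8.56 and 8.22 in visceral mesothelium, against 6.59 and 6.85 in parietal mesothelium, and was called (difference 1.67, standard error 0.16). Probe 10545182 gave 8.02 and 7.67, against 7.61 and 7.55, and was not (difference 0.27, standard error 0.14, adjusted p = 0.363 from limma).

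In all, 7 kappa probes did not pass, that second Igkv19-93 probe among them. In 4 of the 12 probes with V symbols only the visceral arrays were at least 2-fold apart. Igkv9-120 gave 7.78 and 9.76 in visceral mesothelium, against 5.97 and 5.95 in parietal mesothelium, and the difference was 2.81 with a standard error of 0.66 (adjusted p = 0.0883 from limma). Igkv4-55 gave 9.02 and 5.45, against 5.57 and 5.36. Only visceral replicate 1 was high, the second visceral array lay between the parietal ones, and the difference, 1.77 with a standard error of 1.18 (adjusted p = 0.465 from limma), was -0.013 without that first array. For Igkv6-20 the other visceral array was the high one, at 6.50 and 7.93, against 6.07 and 6.18 in parietal mesothelium (difference 1.10, standard error 0.48). Igkv8-30 gave 6.92 and 6.06, against 5.26 and 5.14. The Igkv6-14 and Igkv6-15 probe, 10545247, gave 7.05 and 6.01, against 5.22 and 5.12 in parietal mesothelium. In both of these the tissues did not overlap, with differences of 1.29 (standard error 0.30) and 1.36 (standard error 0.35). Igkv5-43, read by a dim probe, gave 5.12 and 4.75, against 4.47 and 4.45 (difference 0.47, standard error 0.15).

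**Figure D2:**
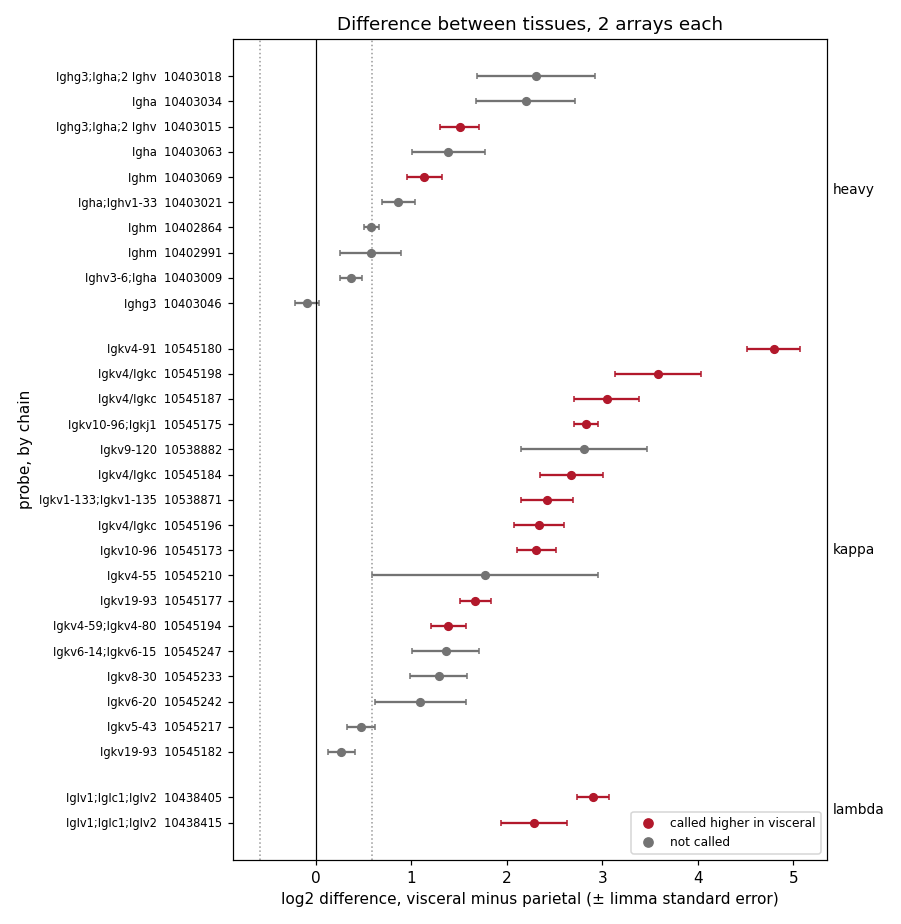
Log2 difference, visceral minus parietal (x axis), of each immunoglobulin probe (y axis, by chain), with limma's standard error as bars. Red points were called higher in visceral mesothelium and grey points were not called; dotted lines mark a fold of 1.5. Igkv4-91 lies farthest right at 4.79, and only Ighg3 lies left of 0, at -0.09.

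Both lambda probes were called higher. Each carries the variable segments Iglv1 and Iglv2 with the constant region Iglc1. Probe 10438405 gave 8.27 and 8.69 in visceral mesothelium, against 5.49 and 5.66 in parietal mesothelium (difference 2.90, standard error 0.17, adjusted p = 0.00279 from limma). Probe 10438415 gave 7.31 and 8.33, against 5.53 and 5.54, with a difference of 2.28 (standard error 0.34). Visceral replicate 2 was the higher visceral array in both, unlike in the Igkc probes.

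Among the heavy chain probes, 2 of 10 were called higher, with a median log2 difference of 1.00. Igha, the constant region of IgA, was named on 6 probes, all with both visceral arrays above both parietal arrays, of which 1 passed. An Igha probe, 10403034, gave 9.62 and 8.07 in visceral mesothelium, against 6.59 and 6.70 in parietal mesothelium (difference 2.20, standard error 0.52, adjusted p = 0.0903 from limma). Its partner 10403063, linked to it by a shared accession, gave 7.92 and 6.80, against 5.86 and 6.08 (difference 1.39, standard error 0.38, adjusted p = 0.125 from limma). In both, visceral replicate 1 was more than 2-fold above visceral replicate 2, and neither passed.

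Of the probes that name Igha with other heavy chain segments, 10403015 and 10403018 both carry Ighg3, Igha, Ighv1-33 and Ighv1-26. Probe 10403015 gave 9.09 and 8.70 in visceral mesothelium, against 7.17 and 7.60 in parietal mesothelium, and was called (difference 1.51, standard error 0.21, adjusted p = 0.0252 from limma). With the replicate number as a block this call, the only one among the 6 Igha probes, was lost (adjusted p = 0.0533 from limma). Probe 10403018 gave 10.20 and 8.34, against 6.92 and 7.01, and did not pass despite the larger difference, 2.30 with a standard error of 0.62 (adjusted p = 0.119 from limma). Its visceral arrays were 1.87 apart. Probe 10403021, with Igha and the pseudogene Ighv1-33, gave 6.28 and 5.86, against 5.12 and 5.30 in parietal mesothelium (difference 0.86, standard error 0.17). Probe 10403009, with Igha and Ighv3-6, gave 5.21 and 5.44, against 4.91 and 5.02 (difference 0.37, standard error 0.11). Neither of these passed (adjusted p = 0.0627 and 0.163 from limma), and both were dim, below the 20th percentile of all probes by mean signal.

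Ighm, the constant region of IgM, which naive B cells carry, was named alone on 3 probes. Probe 10403069 gave 5.72 and 6.20 in visceral mesothelium, against 4.76 and 4.90 in parietal mesothelium, and was called (difference 1.13, standard error 0.18, adjusted p = 0.0383 from limma). Probe 10402864, linked to it by a shared accession, had 6.84 and 6.85 in visceral mesothelium, against 6.27 and 6.25. The difference, 0.583 with a standard error of 0.08 (adjusted p = 0.0246 from limma), stood just under the 0.585 that a fold of 1.5 requires, so it was not called. Probe 10402991 gave 7.78 and 8.74, against 7.65 and 7.72 in parietal mesothelium, and did not pass (difference 0.57, standard error 0.32). In that probe only visceral replicate 2 stood clear of the parietal arrays. Ighg3 alone, on probe 10403046, gave 5.04 and 5.34 in visceral mesothelium, against 5.27 and 5.29 in parietal mesothelium, and was the only probe of the 29 with a negative difference (-0.09, standard error 0.13). Its tissues overlapped, and the difference was 0.0625 without visceral replicate 1.

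The visceral arrays disagreed with each other over many immunoglobulin probes. In 10 of 29 probes they were at least 2-fold apart, against 0.785% of all probes. The parietal arrays were that far apart in 0 of these probes, against 0.588% of all probes, a share at which few or none would be seen. Parietal log2 signal of these probes was also low, 4.45 to 7.72, against array medians of 7.38 to 7.41. The median gap between the visceral arrays was 0.75 on the log2 scale over the 29 probes and 0.13 over all probes. Between the parietal arrays it was 0.12 and 0.11. The direction differed by segment. Visceral replicate 1 was the higher array in 5 of the 6 probes with Igha, in all 4 with Igkc and in Igkv4-55, where it led by 3.57. Visceral replicate 2 was the higher one in all 3 Ighm probes and both lambda probes. In Ighm probe 10402864, though, replicate 1 minus replicate 2 was only -0.015. It was -1.98 in Igkv9-120 and -1.43 in Igkv6-20. The Igkc probes belong to 1 linked group and the lambda probes to another, so these counts hold few independent readings. Over all 35556 probes, replicate 1 was higher in 17556 and replicate 2 in 17958. Of the 10 probes with a gap of at least 2-fold, 7 were higher in replicate 1 and 3 in replicate 2. Replicate 1 was also the higher array in most such probes of the whole array, 213 of 279, with 66 higher in replicate 2. The gap is between 2 arrays and has no test, and the cells or animals behind it are not known here.

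**Figure D3:**
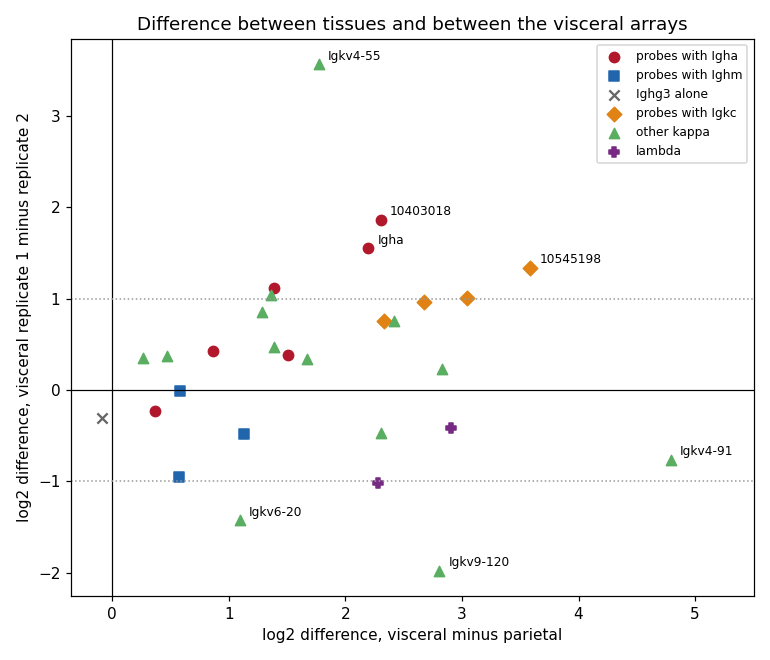
Log2 difference between tissues (x axis, visceral minus parietal) against the difference between the visceral arrays (y axis, replicate 1 minus replicate 2) for the 29 immunoglobulin probes, coloured by the constant region they name; "other kappa" has no Igkc. Dotted lines mark 2-fold; Igkv4-55 lies at 3.57 and Igkv9-120 at -1.98 on the y axis.

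Some of the membrane and signaling genes of B cells were higher in visceral mesothelium as well. Of 28 measured, 9 were called higher, or 32.1%, against 3.27% of all probes, and none lower, with a median difference of 0.44. Cd79a and Cd79b encode the signaling chains that carry the immunoglobulin of the B cell surface. Cd79a gave 7.19 and 7.42 in visceral mesothelium, against 5.76 and 5.62 in parietal mesothelium (difference 1.61, standard error 0.12, adjusted p = 0.00514 from limma). Cd79b gave 9.02 and 9.47, against 7.28 and 7.63 (difference 1.80, standard error 0.20, adjusted p = 0.0157 from limma). Ms4a1, which encodes the B cell antigen CD20, gave 6.92 and 7.54, against 5.69 and 5.68 in parietal mesothelium (difference 1.55, standard error 0.22). The adaptor Bank1 differed by 1.99, the adaptor Blnk by 1.02, the tetraspanin Cd37 by 1.59, Cd72, an inhibitory receptor, by 1.08, and the kinase Btk by 0.96. Ly86, which macrophages express as well, differed by 2.90. Pax5, which fixes B cell identity, gave a difference of 0.31 and did not pass. Of the 28 genes 19 were not called, also among them Cd22 (0.36), Cr2 (0.38) and Blk (0.26).

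Of 26 genes of plasma cells and antibody secretion, 1 was called higher, or 3.85%, near the 3.27% of all probes, and none lower, with a median difference of 0.07. That gene was Jchain, the joining chain that links IgM and IgA into polymers. Its log2 signal was 9.20 and 9.63 in visceral mesothelium, against 5.55 and 5.35 in parietal mesothelium, a 15.6-fold difference with a log2 value of 3.97 and a standard error of 0.17 (adjusted p = 0.00154 from limma). The tissues lay far apart, with visceral replicate 2 the higher array. Mzb1, a chaperone of immunoglobulin assembly, gave a difference of 0.25, short of a call at an adjusted p of 0.244 from limma. No call was made either for Sdc1, a plasma cell surface marker that epithelial cells carry too (-0.07), for the plasma cell receptor Tnfrsf17 (0.37), or for Prdm1 (0.27), Irf4 (0.29) and Xbp1 (0.17), transcription factors of plasma cell formation. Before adjustment 7 genes of the list were higher and 1 lower at a p under 0.05 in limma. Over all 35556 probes these counts were 4385 and 3486. Many genes of this list, such as Xbp1, serve secretion in other cells as well.

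None of 17 genes of segment rearrangement and early B cells passed in limma, and their median difference was 0.00. At an unadjusted p under 0.05 from limma, 3 were higher and 1 lower, against 4385 and 3486 of all 35556 probes. The recombinase gene Rag1 differed by 0.10 and Vpreb1, a part of the surrogate light chain, by -0.09. Il7r, the receptor chain for interleukin-7, on which B cell precursors depend and which T cells carry too, came nearest, at 1.26 (adjusted p = 0.057 from limma). Among 17 factors that attract or keep B cells, 2 were called higher, or 11.8%, against 3.27% of all probes. Cxcl13, the chemokine that draws B cells through Cxcr5, gave 12.84 and 12.79 in visceral mesothelium, against 8.44 and 8.49 in parietal mesothelium (difference 4.35, standard error 0.08, adjusted p = 8.14e-04 from limma). Cxcl12 differed by 0.97, and Cxcr5 by 0.54 without passing.

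Of 13 receptors that bind or carry immunoglobulin, 5 were called higher, or 38.5%, against 3.27% of all probes, and none lower. The log2 difference was 2.87 for the signaling chain Fcer1g, 2.55 for the inhibitory IgG receptor Fcgr2b, 0.95 for the IgE receptor chain Fcer1a and 0.62 for the IgG receptor Fcgr1. Fcgr3, a further IgG receptor, was 2.82-fold higher. Macrophages and mast cells, among other cells, carry these receptors. Ms4a2, another chain of the IgE receptor, went the other way at -0.38 and was not called (adjusted p = 0.183 from limma). Pigr, which moves IgA and IgM across epithelia, gave a difference of 0.07 with no call (adjusted p = 0.702 from limma).

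**Figure D4:**
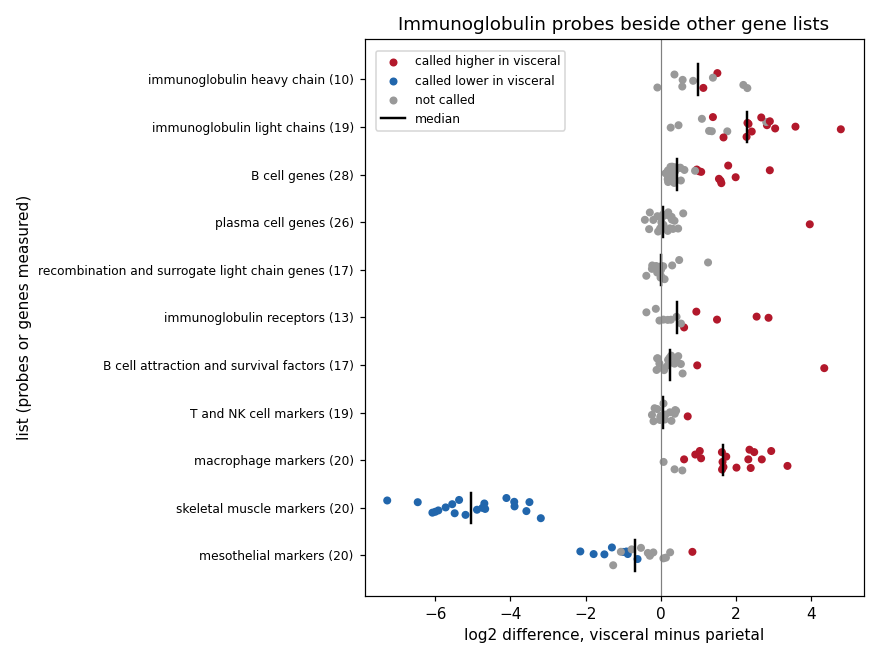
Log2 difference, visceral minus parietal (x axis), of immunoglobulin probes and of the genes of 9 lists (y axis, number measured in brackets). Each point is 1 probe or gene, red where called higher in visceral mesothelium, blue where called lower and grey where not called, and black bars are medians: 1.00 for the heavy chain, 0.44 for B cell genes and 0.07 for plasma cell genes.

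T cell receptor genes are built from V, D and J segments in the same way. Of their 52 segment probes 3 were called higher, or 5.77%, near the 3.27% of all probes, with a median difference of 0.01. All 3 were of the gamma chain, found in gamma-delta T cells. Probe 10403821, with Trgv6, Trgv4 and Trgv2, gave 7.82 and 8.19 in visceral mesothelium, against 5.53 and 5.85 in parietal mesothelium (difference 2.32, standard error 0.18). Probe 10407940, with the same symbols, differed by 1.62 (standard error 0.13). Trgv1 passed narrowly, at 0.74 (standard error 0.13, adjusted p = 0.0479 from limma). Visceral arrays were at least 2-fold apart in 0 of the 52, against 0.785% of all probes, a share at which few would be seen. Of the 52, 38 lay below the median signal of all probes.

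Markers of other cell types moved between the tissues as well. Macrophage markers were called higher in 17 of 20 genes, against 3.27% of all probes, among them Lyve1 (3.37), Mrc1 (2.69), C1qc (2.94) and Tyrobp (2.39). They had a summed linear signal of 32267 to 33931 in visceral mesothelium, against 8197 to 9088 in parietal mesothelium. For the 28 B cell genes the sums were 7437 to 7445 in visceral mesothelium, against 3437 to 3908 in parietal mesothelium. Bright genes weigh most in such sums. Ly86, the brightest of the 28 in visceral mesothelium, had a log2 signal of 10.68 and 10.60, against 7.66 and 7.81. Cd24a, which was not called, had 10.42 and 8.97, against 9.32 and 9.81 in parietal mesothelium. All 20 skeletal muscle markers, such as Myl1 (-7.28), Acta1 (-5.48), Casq1 (-5.55) and Myh1 (-4.89), were called lower in visceral mesothelium, against 2.79% of all probes (summed signal 2916 to 2997, against 85774 to 111377 in parietal mesothelium). Of 20 mesothelial markers 8 were called lower, against 2.79% of all probes, and 1 higher, or 5%, near the 3.27% of all probes. Their summed signal was 75387 to 77098 in visceral mesothelium, against 113078 to 115195 in parietal mesothelium. Those lower included Msln (-2.14), Krt7 (-1.78), Gpm6a (-1.001) and Ezr (-1.30), and the one higher was Wt1 (0.84). Upk3b (-0.20) and Lrrn4 (-0.29) were not called. Of 19 T and NK cell markers 1 was called higher, Cd3g (0.72), or 5.26%, near the 3.27% of all probes. RMA values have no zero and no detection call, and no marker can be said to be at 0. The part of these cell types in the immunoglobulin differences was not tested.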

How the data were processed

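RNA of 2 visceral and 2 parietal mesothelium samples was hybridized to Affymetrix arrays. The deposited log2 values are the authors' RMA output, in which background is removed, arrays are brought to 1 distribution and each probe set gets 1 value; the submitters' processing notes name Partek 6.6. A common distribution can compress large differences.

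Array medians were 7.38 to 7.41, and Pearson's r across probes was 0.992 within visceral, 0.993 within parietal and 0.965 to 0.969 between tissues. The number of arrays limits the precision. Probes with symbols all matching heavy, kappa or lambda segments were taken, and 2 probes that also name another gene were left out. Some genes stand in 2 lists. A list gene was read by its brightest single-symbol probe. All 35556 probes were fitted with limma 3.58.1 in R 4.3.3, with no block, and p-values were adjusted over all of them. The code was tested on simulated data. The probes and lists were chosen with earlier results of these data known. Named were all 29 probes, the called genes of each list with the lowest adjusted p, and some defining genes. Btk, Fcgr1, Wt1, Pax5, Cd22, Cr2, Blk, Tnfrsf17, Prdm1, Irf4, Xbp1, Rag1, Vpreb1, Il7r, Cxcr5, Cd24a, Ms4a2, Pigr, Upk3b and Lrrn4 were added after their values were seen. No sequence is shown and the planned promoter motif search was not run, since no sequence of these segments was used here. Alternatives (another test, thresholds, normalizations, filters, arrays left out, a replicate block) are given in the closing section.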

Additional observations from a re-analysis of the deposited data

How the results depend on the processing

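The 14 calls became 0 under the methods' t-test with adjustment, which called 0 of all probes, and were 14 under it without adjustment. They became 4 at an adjusted p under 0.01, 8 in the test against a fold of 1.5, and 8 among the 12 immunoglobulin probes above the median signal. Filters on signal use the mean of all 4 arrays, so a probe can pass through high visceral arrays alone, and values under them support nothing. Of the 15 with 1 symbol, 4 were called, and 6 of 18 after averaging linked probes, an alternative chosen after seeing the data. The count ran from 5 to 21 on leaving out each array, and the count called lower stayed at 0 in every setting run, limma without adjustment included. The median difference of 1.67 was 2.32 among probes above the median signal and 2.29 without the dimmest 25%, filters that keep the probes high in visceral mesothelium by construction, and 1.38 to 1.84 on leaving out each array. Calls over all probes, 2153, became 1196 at a fold of at least 2, 769 at an adjusted p under 0.01, 663 against a fold of 1.5, and 893 to 1307 on leaving out each array. Without visceral replicate 1, Ighg3 (0.0625) and Igkv4-55 (-0.013) changed sign, and over all arrays left out they ran from -0.24 to 0.0625 and from -0.013 to 3.55. Variance priors and normalizations left 14 or 15 calls. Same-numbered arrays deviated with a correlation of 0.27 over all probes and 0.32 over the immunoglobulin probes, but the labels do not tie the numbers to animals. With the replicate number as a block 13 were called, probe 10403015 being the call lost (adjusted p = 0.0533 from limma). With 2 arrays per tissue, differences of dim probes are uncertain.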

Other observations

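The 2 probes left out because their 4 symbols include Map3k20 beside the kappa segments Igkv9-120 and Igkv1-117 were both called higher in visceral mesothelium by limma. Probe 10538921 gave 8.72 and 8.62 in visceral mesothelium, against 5.48 and 5.66 in parietal mesothelium (difference 3.10, adjusted p = 9.1e-04 from limma). Probe 10538880 gave 7.02 and 6.08, against 4.04 and 4.12 in parietal mesothelium (difference 2.47, adjusted p = 0.0216 from limma). Which gene these probes read is not given by the annotation.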
